A study of Mus musculus with 9 samples.

Results

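Heat-shock proteins and their DNAJ co-chaperones were followed in the renal cortex of mice after ischemic injury, with and without the compound TJ0113. The members were the protein-coding genes of the Hspa, Hspb, Hspd, Hspe, Hsph and Hsp90 families and of the Dnaja, Dnajb and Dnajc families, chosen by symbol, together with Hsf1 and Bag3. The rule itself used no measured value and gave 73 of the 34669 genes in the table, but it was set with earlier results of these data known. Messenger RNA was measured in 9 libraries, 3 from each of 3 groups of wild-type male C57BL/6 mice aged 10 weeks. The sham group was operated on without clamping. The vehicle group was given vehicle by gavage and had the vessels of both kidneys clamped for 30 min, which is ischemia-reperfusion injury on both sides (bIRI). The TJ0113 group had the same injury and received TJ0113, which the sample labels spell TJ013. Gavage began 3 days before surgery and went on daily until the injured mice were killed on day 14. Whether sham mice were gavaged, and on which day they were killed, was not stated in the labels, so clamping and gavage cannot be told apart in a difference from sham. Mice lay on heating pads during ischemia and recovery.

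Chaperones of the HSP70 family bind exposed hydrophobic stretches of unfolded proteins in a cycle driven by ATP, and DNAJ proteins, named for their J domain, deliver the substrate and trigger ATP hydrolysis. Small heat-shock proteins hold unfolding proteins without using ATP, HSP90 proteins finish the folding of kinases and receptors, and HSPD1 with HSPE1 forms the folding chamber of the mitochondrial matrix. When unfolded proteins accumulate, the transcription factor HSF1 binds heat-shock elements, inverted repeats of GAA, and raises the inducible members. The endoplasmic reticulum has a separate response with its own elements. In the kidney, HSP70 and the small heat-shock protein HSPB1 (also called HSP25 in the mouse) are long known to be induced by ischemia.

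The windows around the start sites of 5 members of the heat-shock response, and of 1 endoplasmic reticulum chaperone, are shown because these genes moved apart in the injured kidney: Hspb1, Hspa1b, Bag3 and Hspb8 lay above sham in all injured libraries, and Hspe1 and Hspa5 did not. Only windows that hold the marked letters are shown. Dnajb1 and Dnajb4 also lay above sham in all injured libraries, but their windows lack the marked letters and are left out. Each runs from 250 bases before to 50 bases after the start of the RefSeq gene model, in GRCm38.p6, and is read 5′ to 3′ on the gene's strand. Capitals mark the letters GAANNTTC, a pair of facing heat-shock units, in the first 4. In Hspe1 they mark a run of 3 units, which is GAANNTTC followed by any 2 bases and GAA, read on either strand; a forward and a reverse match overlap there. In Hspa5 they mark the endoplasmic reticulum stress element, CCAAT and CCACG with any 9 bases between.
Hspb1, chr5:135887669-135887968, plus strand: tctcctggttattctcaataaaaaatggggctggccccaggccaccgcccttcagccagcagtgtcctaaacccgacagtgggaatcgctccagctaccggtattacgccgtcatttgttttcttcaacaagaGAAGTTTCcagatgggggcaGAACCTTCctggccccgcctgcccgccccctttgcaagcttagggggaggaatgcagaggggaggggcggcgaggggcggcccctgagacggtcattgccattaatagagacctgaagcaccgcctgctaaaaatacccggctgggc
Hspa1b, chr17:34959189-34959488, minus strand: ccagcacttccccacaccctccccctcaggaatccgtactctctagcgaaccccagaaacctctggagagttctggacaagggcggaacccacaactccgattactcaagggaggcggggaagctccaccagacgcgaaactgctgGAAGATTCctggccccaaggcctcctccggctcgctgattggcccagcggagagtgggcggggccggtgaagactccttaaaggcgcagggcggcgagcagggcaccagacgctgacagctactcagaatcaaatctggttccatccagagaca
Bag3, chr7:128523333-128523632, plus strand: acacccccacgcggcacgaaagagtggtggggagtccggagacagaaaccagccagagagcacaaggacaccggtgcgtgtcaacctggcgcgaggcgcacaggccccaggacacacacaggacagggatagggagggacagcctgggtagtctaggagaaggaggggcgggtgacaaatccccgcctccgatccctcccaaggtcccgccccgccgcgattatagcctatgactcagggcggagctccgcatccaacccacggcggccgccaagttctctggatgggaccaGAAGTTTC
Hspb8, chr5:116422815-116423114, minus strand: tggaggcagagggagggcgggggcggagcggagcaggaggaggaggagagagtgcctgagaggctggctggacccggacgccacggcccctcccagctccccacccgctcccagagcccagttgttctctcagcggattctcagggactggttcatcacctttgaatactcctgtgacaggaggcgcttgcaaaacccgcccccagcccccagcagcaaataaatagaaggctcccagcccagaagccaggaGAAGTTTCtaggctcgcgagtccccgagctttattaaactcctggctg
Hspe1, chr1:55087898-55088197, plus strand: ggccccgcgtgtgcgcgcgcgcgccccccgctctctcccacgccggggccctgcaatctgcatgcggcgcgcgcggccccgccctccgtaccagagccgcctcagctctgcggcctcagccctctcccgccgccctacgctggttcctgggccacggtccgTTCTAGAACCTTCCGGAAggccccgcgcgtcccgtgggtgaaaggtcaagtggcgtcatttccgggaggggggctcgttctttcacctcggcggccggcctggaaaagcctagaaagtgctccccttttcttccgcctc
Hspa5, chr2:34771840-34772139, plus strand: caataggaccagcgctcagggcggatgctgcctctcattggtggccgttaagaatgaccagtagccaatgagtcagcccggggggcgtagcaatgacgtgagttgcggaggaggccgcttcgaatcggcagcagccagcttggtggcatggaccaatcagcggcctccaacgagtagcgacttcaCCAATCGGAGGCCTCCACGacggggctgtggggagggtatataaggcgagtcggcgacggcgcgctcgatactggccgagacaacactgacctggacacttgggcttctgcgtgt
The Hspb1 window held 2 pairs, beginning 117 and 97 bases before the start. The single pair of Hspa1b began 104 bases before it, and the window of Hspa1a, with a pair at the same place, differed from that of Hspa1b at 4 of 300 bases. In Bag3 and Hspb8 the pair lay after the start, from bases 43 and 3. The Hspe1 window shared 285 bases with that of Hspd1, since the genes stand head to head.

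RefSeq gave windows for 58 member genes. GAANNTTC, which reads the same on both strands, was found in those of 14 (24.1%), against 9.036% of 27025 genes with a window. These were Bag3, Dnaja1, Dnaja4, Dnajb6, Dnajc27, Hspa1a, Hspa1b, Hspb1, Hspb3, Hspb6, Hspb8, Hspd1, Hspe1 and Hsph1. The run of 3 units, searched on both strands and always containing the shorter motif, was in those of Dnajb6, Hspd1, Hspe1 and Hsph1, against 0.662% of genes. The endoplasmic reticulum stress element on either strand was in those of Hspa5, Hsp90b1 and Dnajc3, against 0.137% of genes. A match is a run of letters and not evidence of binding.

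FPKM, fragments per kilobase of gene scaled to the size of the library, take length into account, so they also allow levels to be set between genes. The lowest values times gene length fell on equal steps, each worth 1 in 62450000 to 85470000 of a library, which gives the relative depth of the libraries. The number of libraries, 3 a group, limits the precision, and the p-values cover only the spread between these libraries, which the labels do not trace to single mice. Proximal tubule markers, which define the cortex, were high, with 12 markers summing to 39660 to 46780 FPKM in sham. In vehicle libraries 1, 2 and 3 they summed to 15190, 26760 and 1756, and in TJ0113 libraries to 16950, 26950 and 7146. Vehicle library 2 thus lay nearest to sham among the vehicle libraries and library 3 farthest. Calls against sham that were lost without either are named below, while calls gained are named only for core members.

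The members made up 0.562 to 0.795% of all FPKM in a library. Hspa8, the constitutive cytosolic HSP70, was the most abundant, at a mean of 603.5 FPKM over the 9 libraries, followed by the constitutive HSP90 gene Hsp90ab1 at 439.6. Hspd1 at 194.0 and Hspa9, the HSP70 of mitochondria, at 159.8 came next, and these 4 genes held 57.2% of the members' FPKM. The test covered the 68 members with a mean of at least 0.5 FPKM. Hspb3, Dnajb8, Dnajc5b, Dnajb7 and Hspa1l were below that level, with means of 0.00395 to 0.195 FPKM, and Dnajb13 at 0.522, Hspb9 at 0.558 and Dnajb3 at 0.73 were just above it. Dnajb13 and Dnajb3, at sham means of 0.0915 and 0.362 FPKM, passed only through the injured groups, so a call for either is a consequence of that and is not read as a result.

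The comparison of vehicle with sham shows what bIRI with gavage left on day 14. A small group of stress-inducible members stood far above sham (Hspb1, Hspb8, Hspa1a, Hspa1b, Bag3 and Dnajb4), while the abundant constitutive chaperones of the cytosol and the endoplasmic reticulum mostly did not pass the test. Not every inducible member rose: Hsph1 and Hsp90aa1 did not pass either, at log2 differences of -0.12 ± 0.19 and -0.12 ± 0.20 (SE). The mitochondrial HSP60 gene Hspd1 and 5 DNAJC members were below sham. By limma on log2(FPKM + 1) with Benjamini-Hochberg adjustment over 15453 genes and a threshold of 0.05, 14 members rose (13 without Dnajb13) and 6 fell. These are 20.6 and 8.8% of the tested members, against 31.3 and 5.42% of all genes, so in this fit the share that rose was below that of all genes. On the log2 scale the median member stood at -0.18 relative to the median gene. Over all settings this value ran from -0.247 to 0.068, and it was positive only with no expression filter. The median gene was itself 0.30 higher, as fitted. Differences from sham are therefore given below on the log2 scale both as fitted, with the SE, and relative to the median gene. The test and its p belong to the fitted difference, and the relative one was not tested. Median-ratio scaling gave 9 members up and 14 down, against 2454 and 2359 of all genes. Quantile normalization gave 8 up and 14 down, against 2041 and 2320 of all genes.

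Libraries fully separated vehicle from sham upward in 26 members (38.2%, against 45.9% of all genes) and downward in 11 (16.2%, against 10.9%). The 26 include Dnajb3 and Dnajb13, which passed the filter only through the injured groups and are not read as a result. The upward calls of Hspb1, Hspb8, Hspa1a, Hspa1b, Bag3 and Dnajb4 held under all 18 alternative settings. The other 14 calls were lost under at least 1. Without sham library 2 only 7 of 68 members rose and 0 fell, against 743 and 119 of 15453 genes. Without sham library 3 the counts were 8 and 1, against 892 and 130 genes. In both settings the share of members that rose was above that of all genes. Without vehicle library 2, the one nearest to sham, 23 members rose and 9 fell, against 7427 and 1362 genes. Leaving out sham library 1, vehicle library 1 or vehicle library 3 left 10 members up in each case, and 2, 3 and 2 down. Of all genes, 2375, 2759 and 2244 were then up and 286, 439 and 321 down.

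**Figure D1:**
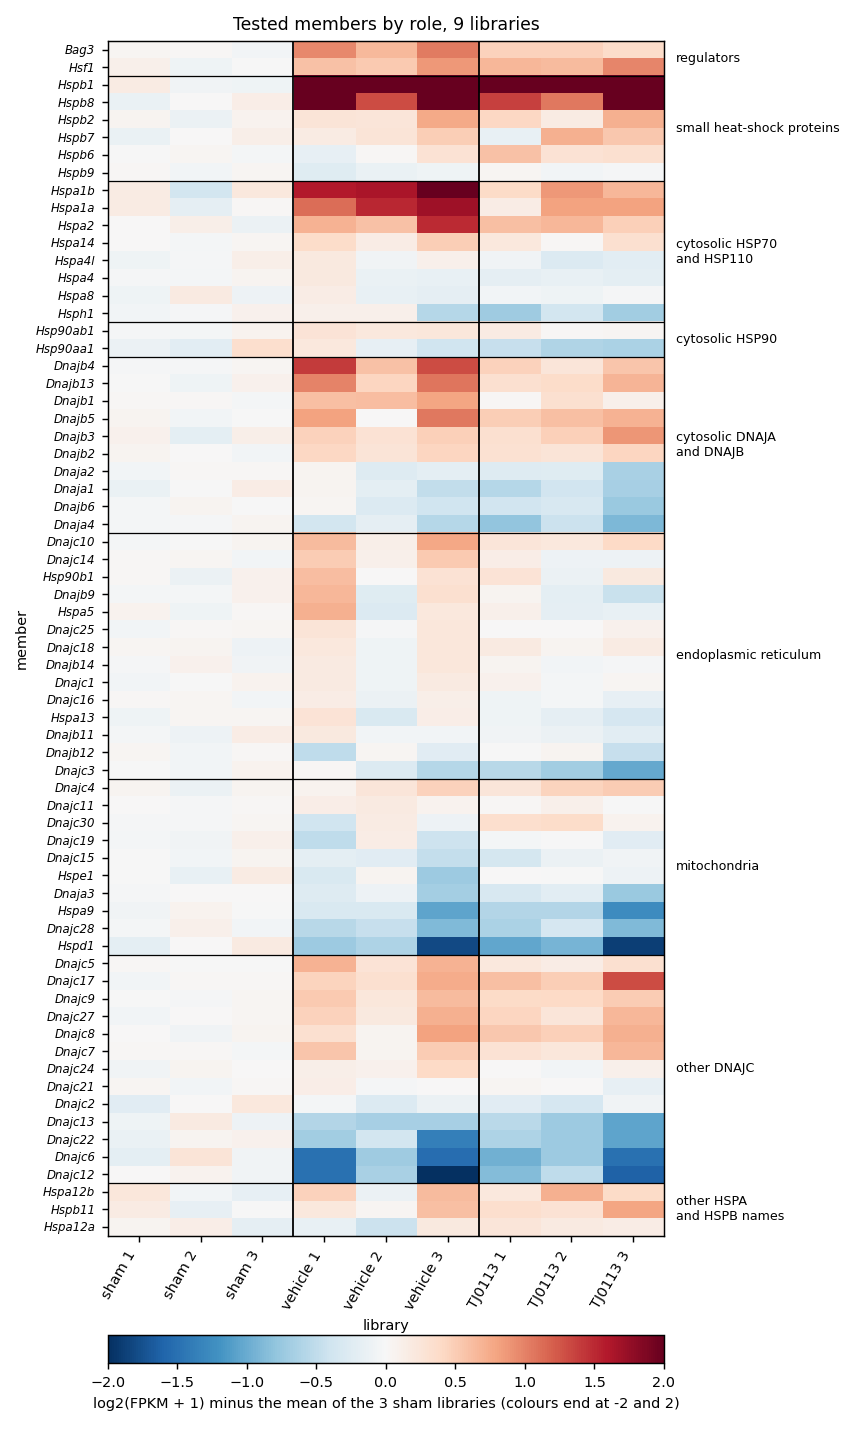
Each row is 1 of the 68 tested members, grouped by role, and each column 1 library. Colour gives log2(FPKM + 1) minus the mean of the 3 sham libraries, red for higher and blue for lower. Hspb1, Hspb8, Hspa1a and Hspa1b are the darkest red in the vehicle libraries, and Hspd1, Dnajc12 and Dnajc6 the darkest blue.

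Both regulators rose. Hsf1, the heat-shock transcription factor, stood at 3.96, 3.37 and 3.64 FPKM in the sham libraries, at 6.00, 5.68 and 7.51 with vehicle and at 6.33, 6.24 and 8.12 with TJ0113. The lowest injured library was well above the highest sham library. The difference between vehicle and sham was 0.66 ± 0.15 (fitted log2, SE, n = 3 and 3, relative 0.37, limma adjusted p = 0.0134), and the call was lost without sham library 2 or 3 and with quantile normalization. Bag3, which links HSP70 to small heat-shock proteins and to autophagy, had 11.4, 11.2 and 10.6 FPKM in sham, 22.4, 17.9 and 23.8 with vehicle and 15.5, 15.6 and 14.5 with TJ0113. Here the 3 groups did not overlap at all, with TJ0113 between the other groups. The rise in vehicle was 0.88 ± 0.13 (fitted log2, relative 0.59, limma adjusted p = 0.00688).

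Among the small heat-shock proteins, 2 of 6 tested members rose (33.3%, against 31.3% of all genes) and none fell. Hspb1 made the largest rise of all members: it was at 5.51, 4.50 and 4.46 FPKM in sham, at 106, 43.7 and 143.0 with vehicle and at 81.9, 40.1 and 118 with TJ0113. Within both injured groups library 2 was lowest and library 3 highest, yet every injured library was far above sham. Its difference from sham was 3.93 ± 0.46 in vehicle (fitted log2, relative 3.63, limma adjusted p = 0.00398). Of its transcript, 51.6% of the 50-base stretches also occur in the pseudogene Hsp25-ps1, which was listed at 0.0 to 0.1017 FPKM. Hspb8, the partner of BAG3 in clearing damaged filaments, was at 1.81, 2.10 and 2.41 FPKM in sham, at 14.99, 6.64 and 13.2 with vehicle and at 7.01, 5.45 and 11.8 with TJ0113. All injured libraries again exceeded all sham libraries, and the rise in vehicle was 1.96 ± 0.31 (fitted log2, relative 1.66, limma adjusted p = 0.00798).

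The small heat-shock proteins best known from muscle and heart did not pass. Hspb6 had 3.65, 3.79 and 3.53 FPKM in sham and 3.14, 3.74 and 4.67 with vehicle, overlapping fully. In the TJ0113 libraries it was at 5.97, 4.69 and 4.79. Hspb2 and Hspb7 differed from sham by 0.42 ± 0.18 and 0.30 ± 0.22 (fitted log2, relative 0.12 and 0.01, limma adjusted p = 0.0956 and 0.276). Hspb2 shares 30.2% of its exon bases with Cryab on the opposite strand, and the labels do not say whether the counting used strand. Hspb9, otherwise a testis gene, was low everywhere, between 0.363 and 0.661 FPKM.

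Macrophage markers moved along with these genes. Of 8 macrophage markers 7 rose in vehicle, and their summed level went from 38.7 to 56.0 FPKM in sham to 899, 289 and 1698 in vehicle libraries 1, 2 and 3, the same order as Hspb1. In TJ0113 libraries it was 561, 475 and 966. Of the smooth muscle markers 2 of 7 tested rose, where 31.3% of all genes did. Their sum was 27.9 to 33.3 FPKM in sham, 37.4 to 123.7 with vehicle and 60.3 to 89.4 with TJ0113. No marker of either list was at 0 in all libraries. The part of a changed cell makeup in the members' values was not tested, and in whole tissue fewer cells of a type and less RNA per cell cannot be told apart.

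Of the cytosolic HSP70 and HSP110 genes, 3 of 8 tested rose (37.5%, against 31.3% of all genes) and none fell. Hspa1b, an inducible HSP70, was at 8.18, 5.31 and 8.44 FPKM in sham, at 23.5, 24.4 and 34.4 with vehicle and at 9.63, 14.0 and 11.9 with TJ0113. The vehicle libraries were above all others, and the TJ0113 libraries lay just above sham. The rise in vehicle was 1.78 ± 0.21 (fitted log2, relative 1.48, limma adjusted p = 0.00436). Hspa1a, its near-identical neighbour, followed it at a lower level, with 2.12, 1.46 and 1.84 FPKM in sham, 5.06, 6.91 and 7.99 with vehicle and 2.08, 3.90 and 3.87 with TJ0113. Here TJ0113 library 1 was within the sham range. The rise in vehicle was 1.44 ± 0.22 (fitted log2, relative 1.14, limma adjusted p = 0.00753). The genes share 60.3 and 62.3% of their 50-base stretches, almost all with each other, so the split between them is uncertain. Their sum was 9.11 ± 2.04 FPKM in sham, 34.1 ± 7.33 with vehicle and 15.1 ± 3.13 with TJ0113 (SD, n = 3 each).

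Hspa2, an HSP70 needed in male germ cells, had 2.37, 2.62 and 2.09 FPKM in sham, 4.46, 4.03 and 8.45 with vehicle and 4.11, 4.33 and 3.65 with TJ0113. All injured libraries exceeded sham, and vehicle library 3 stood apart from the rest. The rise in vehicle was 0.93 ± 0.22 (fitted log2, relative 0.63, limma adjusted p = 0.0165), and 0.64 as fitted without vehicle library 3 (adjusted p = 0.0205). The call was lost without sham library 2 or 3 and with quantile normalization. The constitutive genes did not pass. Hspa8 was at 580, 702 and 577 FPKM in sham, at 687, 558 and 543 with vehicle and at 592, 583 and 610.0 with TJ0113, so the most abundant member overlapped between all groups (fitted log2 difference of vehicle from sham -0.06 ± 0.20, relative -0.36, limma adjusted p = 0.829). Of its stretches, 51.4% recur in other genes, mainly pseudogenes. Hspa4, an HSP110-type exchange factor for HSP70, ran from 31.3 to 33.2 FPKM in sham, from 29.0 to 36.6 with vehicle and from 27.7 to 28.8 with TJ0113. Hsph1, the heat-inducible HSP110, had 19.6, 20.03 and 21.6 FPKM in sham, 21.8, 22.0 and 13.4 with vehicle and 12.1, 15.6 and 12.2 with TJ0113, with vehicle library 3 alone at the TJ0113 level. Hspa14 and Hspa4l did not pass either (fitted log2 0.335 ± 0.13 and 0.08 ± 0.13, relative 0.04 and -0.22, limma adjusted p = 0.0723 and 0.632).

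Neither cytosolic HSP90 gene passed between vehicle and sham. Hsp90ab1, the constitutive form, was at 399, 396 and 427 FPKM in sham, at 493, 473 and 478 with vehicle and at 458, 413 and 420 with TJ0113. Its vehicle libraries were all above sham, but by no more than the median gene (fitted log2 0.24 ± 0.17, relative -0.06, limma adjusted p = 0.269). Hsp90aa1, the inducible form, had 90.6, 84.9 and 124.0 FPKM in sham, 113.9, 87.6 and 74.6 with vehicle and 71.4, 64.4 and 63.1 with TJ0113. Sham and vehicle overlapped, and the TJ0113 libraries were below both. Its ratio to Hsp90ab1 was 0.244 ± 0.0408 in sham, 0.191 ± 0.0376 with vehicle and 0.154 ± 0.00321 with TJ0113 (SD, n = 3 each), and 58.5% of its stretches recur in other genes.

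**Figure D2:**
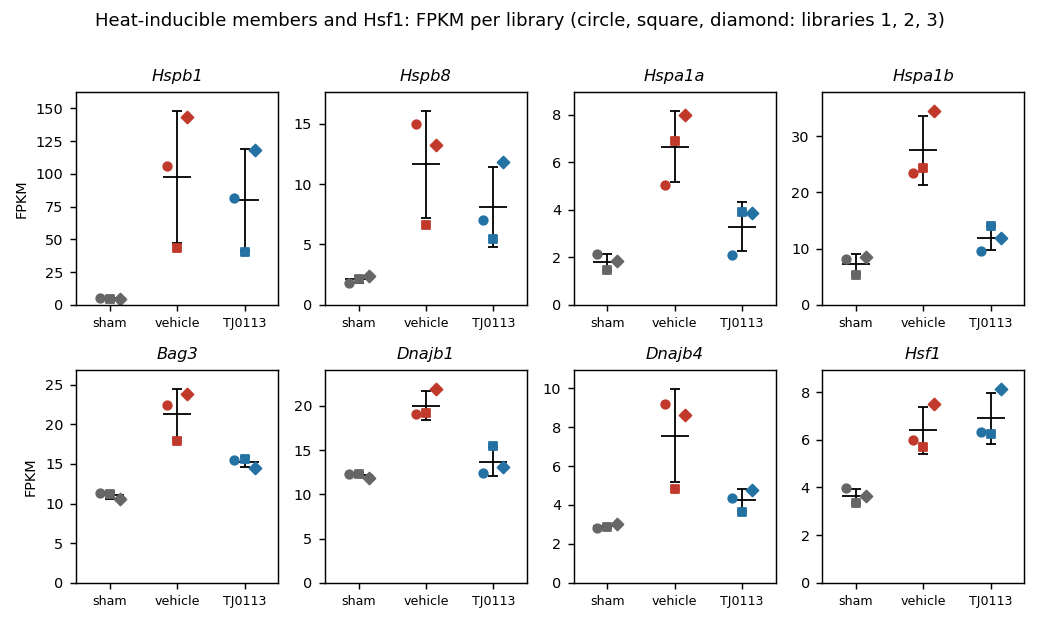
FPKM of 8 members (Hspb1, Hspb8, Hspa1a, Hspa1b, Bag3, Dnajb1, Dnajb4 and Hsf1) on linear axes from 0; symbols mark libraries 1, 2 and 3 of each group, bars the mean and SD. All vehicle libraries are above all sham libraries in every panel, and every TJ0113 library of Hspa1b, Dnajb1 and Dnajb4 is below every vehicle library.

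Of the cytosolic DNAJA and DNAJB co-chaperones, 4 of 10 tested rose (Dnajb1, Dnajb2, Dnajb4 and Dnajb13, or 3 without Dnajb13) and none fell. With Dnajb13 counted, the share that rose was 40.0%, against 31.3% of all genes. Dnajb4, a partner of HSP70 in the cytosol, was at 2.82, 2.85 and 3.01 FPKM in sham, at 9.21, 4.82 and 8.64 with vehicle and at 4.35, 3.62 and 4.75 with TJ0113. The sham libraries were the tightest, and each TJ0113 library was above sham and below vehicle. Its rise in vehicle was 1.09 ± 0.21 (fitted log2, relative 0.80, limma adjusted p = 0.0104). Dnajb1, the heat-inducible HSP40, had 12.4, 12.3 and 11.9 FPKM in sham, 19.1, 19.1 and 21.9 with vehicle and 12.5, 15.5 and 13.1 with TJ0113. The rise in vehicle was 0.67 ± 0.12 (fitted log2, relative 0.38, limma adjusted p = 0.00917), and only median-ratio scaling ended the call.

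Dnajb2, a co-chaperone with ubiquitin-binding motifs, ran from 8.44 to 9.26 FPKM in sham and from 10.8 to 12.3 with vehicle. It passed at 0.37 ± 0.11 (fitted log2, limma adjusted p = 0.0307), of which 0.07 was beyond the median gene, and the fitted value turned to -0.01 with median-ratio scaling. Its call was also lost with quantile normalization, without any of the sham libraries and without vehicle library 1 or 3. Dnajb13, a gene of sperm flagella and motile cilia, had 0.0848, 0.0266 and 0.163 FPKM in sham, 1.16, 0.470 and 1.29 with vehicle and 0.355, 0.399 and 0.744 with TJ0113. Its injured libraries were all higher, at a low level throughout. Its call, lost without sham library 2, is not read as a result, since it passed the filter only through the injured groups. Beside it, Foxj1, a regulator of motile cilia, was the 1 marker of 2 tested on the list of motile cilia and testis genes that rose. The summed list was 1.03 to 1.33 FPKM in sham, 2.89 to 8.15 with vehicle and 3.15 to 8.99 with TJ0113. Ucp2, which overlaps 11.2% of the exon bases of Dnajb13 on the other strand, was at 6.88 to 10.1 FPKM in sham and 36.1 to 51.9 with vehicle. The part of either in the value of Dnajb13 was not tested.

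None of the cytosolic DNAJA genes, general partners of HSP70, passed between vehicle and sham. Dnaja1 was at 33.6, 36.8 and 41.4 FPKM in sham, at 38.8, 32.2 and 26.2 with vehicle and at 24.6, 28.2 and 23.1 with TJ0113. Vehicle overlapped sham, and only TJ0113 was fully below it. Dnaja4 had 4.99, 5.07 and 5.39 FPKM in sham, 3.75, 4.43 and 3.16 with vehicle and 2.56, 3.55 and 2.30 with TJ0113. Both injured groups were below sham, although the vehicle difference of -0.37 ± 0.16 (fitted log2, relative -0.67) missed the threshold (limma adjusted p = 0.0826). Wdr61 overlaps 44.1% of the exon bases of Dnaja4 on the opposite strand. Dnaja2, Dnajb3, Dnajb5 and Dnajb6 differed from sham by -0.21 to 0.62 in vehicle (fitted log2), and none passed.

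In the endoplasmic reticulum, 1 of 14 tested members rose (7.1%, against 31.3% of all genes) and none fell. The riser was Dnajc10, a reductase that helps to degrade misfolded proteins, at 9.26, 9.52 and 9.92 FPKM in sham, 15.4, 10.4 and 17.0 with vehicle and 11.5, 11.2 and 12.9 with TJ0113. Vehicle library 2 was only just above sham. The difference was 0.505 ± 0.17 (fitted log2, relative 0.21, limma adjusted p = 0.043), and the call held in 7 of 18 alternatives and not without vehicle library 1 or 3. The main chaperones of this compartment did not pass with all libraries. Without vehicle library 2, Hsp90b1 passed at 0.45 and Dnajb9 at 0.50 (fitted log2, limma adjusted p = 0.0477 and 0.0359), and Hspa5 went from 0.22 to 0.46 without passing (adjusted p = 0.0562). Hspa5, also called BiP, was at 100.7, 89.5 and 96.7 FPKM in sham, at 156.9, 78.7 and 111.1 with vehicle and at 102.9, 84.0 and 86.2 with TJ0113. The vehicle libraries lay on both sides of sham, with library 1 highest and library 2 lowest of all 9. Hsp90b1, the HSP90 of the reticulum, showed the same order within vehicle at 89.1, 57.8 and 70.7 FPKM, against 53.5 to 61.4 in sham and 52.9 to 69.8 with TJ0113.

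Dnajb9, an inhibitor of the stress sensor IRE1, ranged from 17.2 to 18.9 FPKM in sham, 14.9 to 28.9 with vehicle and 12.8 to 18.5 with TJ0113. Dnajb11, a BiP co-chaperone mutated in a form of polycystic kidney disease, ranged from 26.6 to 31.8, 27.5 to 33.1 and 24.5 to 27.3 FPKM. Hspa13 ranged from 3.59 to 4.02, 2.92 to 4.89 and 2.86 to 3.59 FPKM. All 3 overlapped between vehicle and sham. Dnajc3, which inhibits the kinase PERK, was at 31.7, 30.4 and 33.3 FPKM in sham, at 32.5, 26.1 and 21.1 with vehicle and at 21.3, 19.2 and 15.1 with TJ0113. It overlapped between vehicle and sham, and all TJ0113 libraries were below sham. The other members of the compartment differed from sham by -0.23 to 0.38 in vehicle (fitted log2), and none passed.

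The mitochondrial members stood lowest as a group. All 10 were below the median gene in vehicle against sham, with a median relative log2 difference of -0.61. Of these 10, 2 fell beyond the threshold, where 5.42% of all genes did. None of them rose, against 31.3% of all genes. Hspd1 was at 262, 302 and 338 FPKM in sham, at 181, 195 and 84.9 with vehicle and at 145, 157 and 80.7 with TJ0113. All injured libraries were below all sham libraries, and library 3 was lowest in both injured groups. Its difference from sham in vehicle was -1.05 ± 0.35 (fitted log2, relative -1.34, limma adjusted p = 0.0435). The call held in 10 of 18 alternatives. It was lost without any of sham libraries 1, 2 and 3, without vehicle library 1, without TJ0113 library 1, with no expression filter, with the groups fitted alone, and without vehicle library 3, where the fitted value was -0.67 (adjusted p = 0.123). Of its stretches 44.8% recur in other genes, chiefly Hspd1-ps3, which was itself at 2.81 to 8.90 FPKM. Dnajc28 was at 4.33, 4.88 and 4.29 FPKM in sham, at 2.74, 3.01 and 1.97 with vehicle and at 2.54, 3.33 and 1.98 with TJ0113, again with no overlap with sham. Its difference from sham in vehicle was -0.63 ± 0.17 (fitted log2, relative -0.93, limma adjusted p = 0.0231), a call lost without any of the sham libraries, without vehicle library 3 and with no expression filter.

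Hspe1, the lid of the HSPD1 chamber, did not pass between vehicle and sham (fitted log2 -0.33 ± 0.20, relative -0.62, limma adjusted p = 0.202). Without vehicle library 2 it passed at -0.52 (adjusted p = 0.0278), and without vehicle library 3 it was at -0.125 (adjusted p = 0.589). It had 94.8, 86.5 and 106.7 FPKM in sham, 77.0, 99.7 and 57.2 with vehicle and 96.2, 95.0 and 88.9 with TJ0113. The sham and TJ0113 ranges overlapped. The ratio of Hspd1 to Hspe1 was 3.14 ± 0.364 in sham, 1.93 ± 0.435 with vehicle and 1.35 ± 0.392 with TJ0113 (SD, n = 3 each), so the pair that shares a promoter region differed in proportion, with all injured ratios below all sham ratios. Hspa9 was at 200.2, 222 and 209 FPKM in sham, at 169, 171 and 100.2 with vehicle and at 139, 139.9 and 87.3 with TJ0113. Every injured library was below sham, but the vehicle difference of -0.56 ± 0.26 (fitted log2, relative -0.85) did not pass (limma adjusted p = 0.108).

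Dnaja3, the DNAJ protein of the matrix, was at 32.8 to 33.9 FPKM in sham and 20.5 to 31.1 with vehicle, without overlap, and did not pass (limma adjusted p = 0.149). Dnajc15, of the inner membrane import motor, was at 7.30 to 7.98 and 5.21 to 6.49 FPKM, also without overlap and also short of the threshold (limma adjusted p = 0.0873). Dnajc4, Dnajc11, Dnajc19 and Dnajc30 differed from sham by -0.255 to 0.25 in vehicle (fitted log2), and none passed. Beside these values, 7 of 12 proximal tubule markers fell, and their sum was lowest in vehicle library 3 and TJ0113 library 3, the libraries that were also lowest in Hspd1, Hspa9 and Dnaja3. The part of tubule cell content in the mitochondrial values was not tested.

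**Figure D3:**
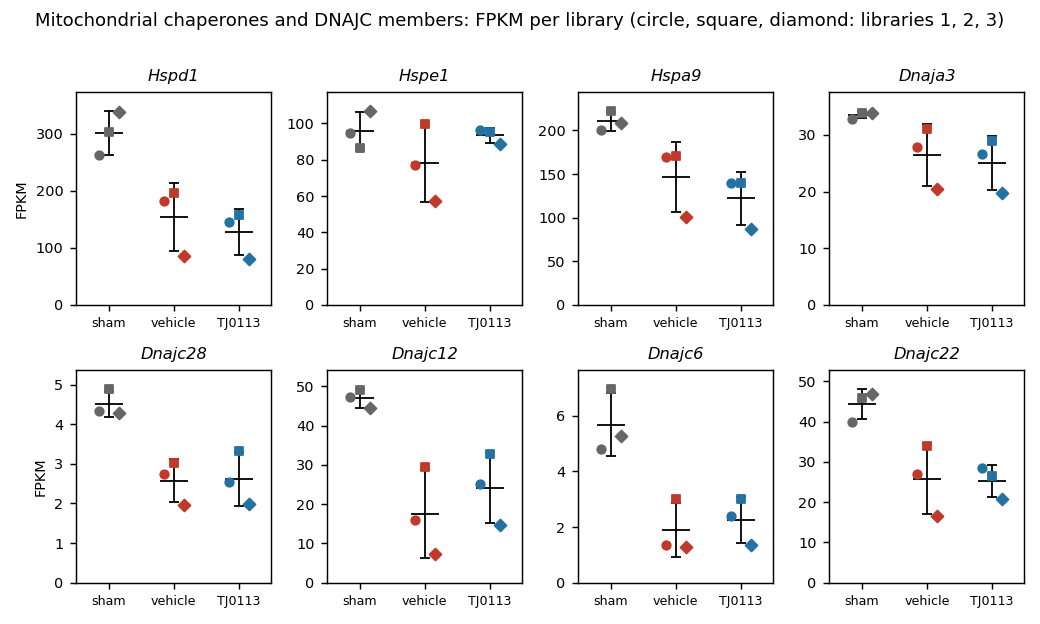
FPKM of 5 mitochondrial members (Hspd1, Hspe1, Hspa9, Dnaja3 and Dnajc28) and of Dnajc12, Dnajc6 and Dnajc22 on linear axes from 0; symbols mark libraries 1, 2 and 3 of each group, bars the mean and SD. All injured libraries are below all sham libraries in every panel but that of Hspe1, and library 3 is lowest of its group in both injured groups.

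Among the other DNAJC members, 2 of 13 tested rose and 4 fell (15.4 and 30.8%, against 31.3 and 5.42% of all genes). Dnajc12, which assists the folding of aromatic amino acid hydroxylases, had the largest fall of all members, with 47.2, 49.1 and 44.4 FPKM in sham, 15.9, 29.5 and 7.26 with vehicle and 25.2, 32.8 and 14.7 with TJ0113. The 3 sham libraries were close together, and in both injured groups library 2 was highest and library 3 lowest, the order of the proximal tubule markers. The difference from sham in vehicle was -1.56 ± 0.43 (fitted log2, relative -1.86, limma adjusted p = 0.0242). Dnajc6, which removes clathrin coats from vesicles, was at 4.80, 6.95 and 5.28 FPKM in sham, 1.36, 3.03 and 1.29 with vehicle and 2.41, 3.01 and 1.36 with TJ0113, a difference of -1.25 ± 0.27 in vehicle (fitted log2, relative -1.54, limma adjusted p = 0.0129). Injured and sham libraries did not overlap.

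Dnajc13, an endosome protein, was at 16.6, 20.2 and 16.5 FPKM in sham, 11.5, 10.7 and 10.8 with vehicle and 11.8, 10.3 and 7.98 with TJ0113. Its vehicle libraries, library 3 included, lay within 1 FPKM of each other, and its difference from sham was -0.64 ± 0.15 (fitted log2, relative -0.94, limma adjusted p = 0.016). Dnajc22 was at 40.0, 46.0 and 46.9 FPKM in sham, 27.0, 34.0 and 16.5 with vehicle and 28.4, 26.5 and 20.7 with TJ0113, and differed by -0.81 ± 0.24 (fitted log2, relative -1.11, limma adjusted p = 0.0296). No injured library reached the sham level. The risers were small. Dnajc5, the cysteine-string protein of secretory vesicles, went from 15.7 to 15.98 FPKM in sham to 19.3 to 26.3 with vehicle (fitted log2 0.56 ± 0.14, relative 0.26, limma adjusted p = 0.0178). Dnajc9, a histone co-chaperone, went from 6.56 to 6.95 FPKM in sham to 8.08 or more with vehicle (fitted log2 0.465 ± 0.13, relative 0.17, limma adjusted p = 0.0245). Both calls were lost under median-ratio and quantile scaling, without any of the sham libraries and without vehicle library 1 or 3. Dnajc2, Dnajc7, Dnajc8, Dnajc17, Dnajc21, Dnajc24 and Dnajc27 differed by -0.14 to 0.50 (fitted log2), and none passed. The calls of Dnajc12 and Dnajc22 were each lost without any of sham libraries 1, 2 and 3, without vehicle library 1 or 3 and with no expression filter (fitted values without vehicle library 3 of -1.075 and -0.53), that of Dnajc13 without sham library 2 or 3, and that of Dnajc6 without sham library 2. Hspa12a, Hspa12b and Hspb11, distant from the core families, differed by -0.13 to 0.325 (fitted log2) and did not pass.

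Other genes of the chaperone system were set beside the shares of 31.3 and 5.42% of all genes that rose and fell. Of 34 HSP90 and HSP70 partners, 7 rose and 2 fell, with a median relative log2 difference of -0.06. Bag2, an exchange factor that limits ubiquitination of HSP70 clients, rose by 1.07 ± 0.16, Hspbp1, another exchange factor, rose by 0.81 ± 0.14, and Fnip2, an inhibitor of the HSP90 ATPase, changed by -0.63 ± 0.12 (fitted log2, relative 0.78, 0.51 and -0.93, limma adjusted p = 0.0075, 0.00902 and 0.011). None of the 16 genes of the CCT chaperonin and prefoldin, which fold actin and tubulin, passed by limma, although 4 had an unadjusted p under 0.05. Of 17 further heat-inducible genes and heat-shock factors tested, 6 rose and none fell. They included Serpinh1, the collagen chaperone HSP47, at 1.765 ± 0.27, Hmox1, heme oxygenase, at 1.02 ± 0.17, and Hsbp1, which binds HSF1, at 0.50 ± 0.13 (fitted log2, relative 1.47, 0.72 and 0.20, limma adjusted p = 0.00753, 0.00837 and 0.0196).

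Of the 13 tested members with GAANNTTC in the window, 5 rose (Hspb1, Hspb8, Hspa1a, Hspa1b and Bag3) and 1 fell (Hspd1) in vehicle against sham, where 31.3 and 5.42% of all genes did. Of the 4 with a run of 3 units, none rose and 1 fell. None of the 3 with the endoplasmic reticulum stress element passed.

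The comparison of TJ0113 with vehicle asks what the compound changed in the injured kidney. The largest negative differences were those of Hspa1b, Hspa1a and Dnajb4, whose TJ0113 libraries were all below all vehicle libraries. No member passed the test, and no gene of all 15453 did (0.0% called by limma, with 927 genes at an unadjusted p under 0.05). Leaving out vehicle library 2 made that 3702 genes, and leaving out vehicle library 1 made it 320. At an unadjusted p under 0.05, 10 members were lower (14.7%, against 3.69% of all genes) and 2 higher (2.9%, against 2.31%). With vehicle library 2 left out, 26.5% of members and 19.1% of all genes were lower, so in proportion the shares were then nearer to each other. The shares were 7.4 and 1.12% with vehicle library 1 left out, and 16.2 and 3.15% with vehicle library 3 left out. The libraries separated fully downward in 10 members (14.7%, against 4.39%) and upward in 2 (2.9%, against 2.96%). The 10 separated downward were Bag3, Hspa1a, Hspa1b, Hspa4, Hspa4l, Hsp90aa1, Hsp90ab1, Dnajb1, Dnajb4 and Dnajb11, and the 2 upward were Hspb6 and Hspb9. The median member was -0.12 and the median gene -0.03 (log2, as fitted).

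Hspa1b differed most, by -1.14 ± 0.21 (log2, SE, TJ0113 minus vehicle), with the highest TJ0113 library at 14.0 FPKM and the lowest vehicle library at 23.5. Hspa1a differed by -0.85 ± 0.22, Dnajb4 by -0.67 ± 0.21, Dnajb1 by -0.52 ± 0.12 and Bag3 by -0.46 ± 0.13. The adjusted p of limma was 0.796 for each of these 5. Over the 18 alternatives the log2 difference stayed between -1.26 and -0.97 for Hspa1b, between -0.93 and -0.52 for Dnajb4 and between -0.57 and -0.38 for Bag3. The lowest adjusted p in any of them was 0.0626, 0.0585 and 0.0597, each without vehicle library 2, and the highest was 1.0 for all 3.

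Other heat-inducible members overlapped between TJ0113 and vehicle or differed less. Hsf1 differed by 0.09 ± 0.15, Hspb1 by -0.25 ± 0.46 and Hspb8 by -0.46 ± 0.31 (log2, TJ0113 minus vehicle), with overlapping libraries. For Hspb1 the alternatives ran from -0.75 to 0.17, so its sign depended on the setting, and without vehicle library 2 Hspb8 was at -0.79. Hsp90aa1 differed by -0.45 ± 0.20, Hsph1 by -0.47 ± 0.19 and Dnajc3 by -0.49 ± 0.18. Dnajc14, a chaperone of the endoplasmic reticulum membrane, differed by -0.40 ± 0.14, with 9.03, 7.47 and 7.51 FPKM against 12.0, 8.76 and 12.1 with vehicle. Its lowest vehicle library was below its highest TJ0113 library, and Ormdl2 overlaps 17.0% of its exon bases on the opposite strand. All of these had a limma adjusted p of 0.796 or above.

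By compartment, 12 of 14 members of the endoplasmic reticulum and 9 of 10 cytosolic DNAJA and DNAJB members had a negative fitted difference, with medians of -0.18 and -0.30 (log2), where 56.2% of all genes were negative. The mitochondrial members were centred near 0 (median 0.07), with 6 positive and 4 negative. Hspd1 differed by -0.24 ± 0.35, Hspa9 by -0.25 ± 0.26 and Hspe1 by 0.29 ± 0.20, all with overlapping libraries. Hspb6 was higher by 0.35 ± 0.15, and its lowest TJ0113 library was only just above its highest vehicle library, at 4.69 against 4.67 FPKM. Dnajc12, the member with the largest fall in vehicle, differed by 0.57 ± 0.43. Macrophage markers (0 of 8) and proximal tubule markers (0 of 12) did not pass between TJ0113 and vehicle either, and their summed levels overlapped.

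**Figure D4:**
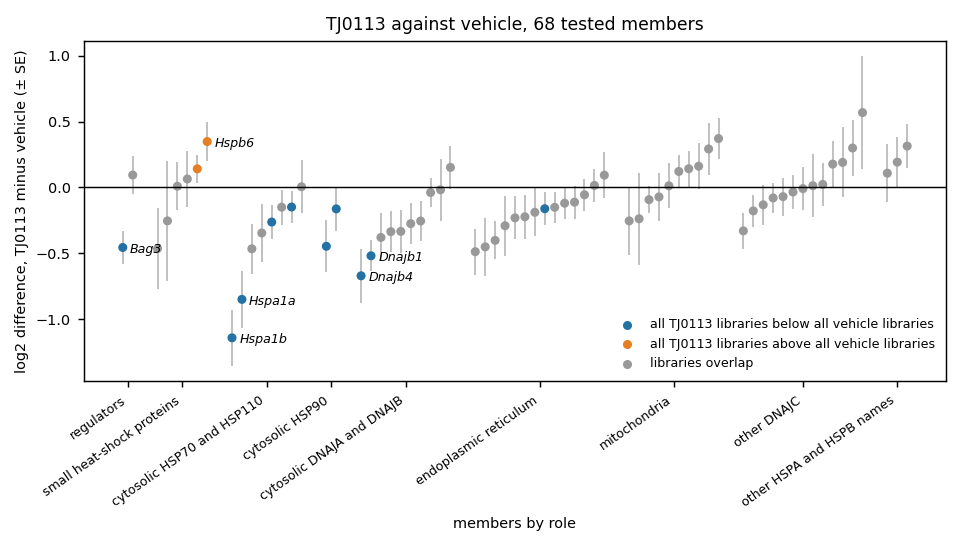
Fitted log2 difference between TJ0113 and vehicle (points, with SE bars) for the 68 tested members, ordered by role and then by value. Blue points have all 3 TJ0113 libraries below all 3 vehicle libraries (10 members), orange points the reverse (2 members), and Hspa1b at -1.14 is lowest; no member passed the threshold.

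The comparison of TJ0113 with sham, which shares its sham libraries with the first comparison and its TJ0113 libraries with the second, gives what remained different under the compound. Hspb1 and Hspb8 were still far above sham, and Hspd1 and Dnajc6 had the most negative differences. By limma with Benjamini-Hochberg adjustment 11 members rose (10 without Dnajb3) and 11 fell (16.2% each, against 28.9 and 5.92% of all genes). The median gene was 0.26 higher as fitted, and the median member stood at -0.23 relative to it (log2), with -0.313 to -0.001 over all settings. Median-ratio scaling gave 5 members up and 23 down, quantile normalization 3 and 22, and scaling to equal FPKM sums 5 and 10. Of all genes, these gave 2867 and 2809, 2391 and 2854, and 3455 and 622. Libraries separated upward in 25 members (36.8%, against 50.5% of all genes) and downward in 17 (25.0%, against 14.6%). The 25 again include Dnajb3 and Dnajb13, which are not read as a result.

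Hspb1 differed from sham by 3.67 ± 0.46, Hspb8 by 1.49 ± 0.31 and Hsf1 by 0.76 ± 0.15 (fitted log2, relative 3.41, 1.23 and 0.49, limma adjusted p = 0.00567, 0.0113 and 0.00969), and these 3 calls held in all 18 alternatives. Hspa1b was higher by 0.64 ± 0.21 and Bag3 by 0.43 ± 0.13 (fitted log2, relative 0.37 and 0.17, limma adjusted p = 0.0445 and 0.0306), each held in 8 of 18. Hspa1a, Dnajb1 and Dnajb4 did not pass against sham with TJ0113 (fitted log2 0.59 ± 0.22, 0.15 ± 0.12 and 0.42 ± 0.21, relative 0.32, -0.11 and 0.16, limma adjusted p = 0.0621, 0.326 and 0.13). The other risers were Dnajb2, Dnajc4, Dnajc8, Dnajc9 and Dnajc17, beside Dnajb3, whose call is not read as a result. The relative differences of Dnajb2, Dnajc4, Dnajc8 and Dnajc9 were 0.07, 0.13, 0.31 and 0.17. Their calls held in 6, 7, 8 and 9 of 18 alternatives. Each was lost with equal FPKM sums, median-ratio scaling, quantile normalization or no expression filter, and without any of the sham libraries. Dnajc8, a DNAJ protein of the spliceosome, ranged from 12.3 to 13.5 FPKM in sham and from 18.4 to 21.8 with TJ0113, with no overlap. Dnajc4 ranged from 12.6 to 14.4 and from 16.5 to 19.9 FPKM. Dnajb3, a low one, ran from 0.180 to 0.465 and from 0.701 to 1.49, a gap that follows from its passing the filter only through the injured groups. Dnajc17, an RNA-splicing DNAJ protein, had 3.51, 3.74 and 3.75 FPKM in sham and 6.07, 5.59 and 10.5 with TJ0113. Library 3 was the highest, and the difference was 0.80 ± 0.21 (fitted log2, relative 0.54, limma adjusted p = 0.0207), a call lost without TJ0113 library 3 or any of the sham libraries, with quantile normalization and with no expression filter.

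The members that fell were Hspd1, Hspa9 and Dnajc28 of mitochondria, Dnajc3 of the endoplasmic reticulum, Hsph1, Dnaja1, Dnaja4 and Dnajb6 of the cytosol, and Dnajc6, Dnajc13 and Dnajc22. Hspd1 differed by -1.28 ± 0.35, Hspa9 by -0.81 ± 0.26, Dnajc3 by -0.76 ± 0.18 and Dnaja4 by -0.71 ± 0.16 (fitted log2, relative -1.55, -1.07, -1.02 and -0.97, limma adjusted p = 0.0232, 0.0373, 0.0147 and 0.0129). Hsph1 differed by -0.59 ± 0.19, Dnaja1 by -0.54 ± 0.16 and Dnajb6, which keeps polyglutamine proteins soluble, by -0.485 ± 0.16 (fitted log2, relative -0.85, -0.80 and -0.75, limma adjusted p = 0.0406, 0.0317 and 0.0393). Of the 11 falls, that of Dnajc13 (fitted log2 -0.775 ± 0.15, relative -1.04, limma adjusted p = 0.00997) held in all 18 alternatives. Without sham library 1, 3 members rose and 5 fell, against 2532 and 389 of all genes. Without sham library 2, sham library 3 or TJ0113 library 3, 3 members rose and 1 fell. Of all genes, 1106, 1276 and 1236 rose and 166, 193 and 193 fell there. Without TJ0113 library 1, 8 members rose and 5 fell, against 2748 and 594 genes. Without vehicle library 2 or 3, which enter only through the shared estimate of spread, 19 and 18 members rose, against 6002 and 5538 genes. Hsph1, Hspa9, Dnaja1, Dnaja4, Dnajb6 and Dnajc3 fell against sham with TJ0113 and did not pass with vehicle, but their difference between TJ0113 and vehicle did not pass either.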

How the data were processed

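The 9 libraries were paired-end messenger RNA libraries of renal cortex. Alignment was with HISAT2, per the submitters' processing notes; no label names the counter, genome build or annotation. FPKM values were deposited by the authors and used unrescaled. Whole-step checks placed 98.7 to 99.1% of low values within 0.05 of a whole step. GENCODE M21 named 33893 of 34669 identifiers (97.8%). One gene that meets the rule, Dnajc5g, has no row and is not analysed here. Differences were tested with limma 3.58.1 in R 4.3.3 on log2(FPKM + 1), with a variance trend, in 1 fit of all 9 libraries, keeping 15453 genes whose mean FPKM was 0.5 or more. P-values were adjusted by Benjamini-Hochberg, and the test was tried on simulated data. Core members of each family were named in every comparison, with the 6 largest non-overlapping changes each way against sham and the 6 smallest p between TJ0113 and vehicle; other members were named after their values were seen. The members and lists were chosen with earlier results of these data known. Same-numbered libraries were not treated as pairs. Alternatives covered the pseudocount, filter, scaling, variance trend, block, groups fitted and each library left out. Python 3.11.15, numpy 2.4.6, pandas 2.3.3 and matplotlib 3.10.9 were used.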

Additional observations from a re-analysis of the deposited data

How the results depend on the processing

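Between vehicle and sham, where 14 members rose and 6 fell, median-ratio scaling gave 9 and 14 and quantile normalization 8 and 14. Of all 15453 genes, 2454 rose and 2359 fell with the first, and 2041 and 2320 with the second. Dropping the filter gave 13 and 2 of 73 members, against 2485 and 448 of 34669 genes. The share of members that rose was then the larger. Leaving out 1 library gave 7 to 23 members up and 0 to 9 down, against 743 to 7427 and 119 to 1362 of all genes. Between TJ0113 and sham, where 11 members rose and 11 fell, dropping the filter gave 3 and 3 and scaling to equal FPKM sums 5 and 10. Median-ratio scaling gave 5 and 23, quantile normalization 3 and 22 and fitting the 2 groups alone 22 and 15. In that order, the counts over all genes were 2667 and 538, 3455 and 622, 2867 and 2809, 2391 and 2854, and 6322 and 1484. Leaving out 1 library gave 3 to 19 members up and 1 to 14 down, against 1106 to 6002 and 166 to 1311 of all genes. Between TJ0113 and vehicle no alternative called a member. Dnajb2 turned to -0.01 against sham with vehicle and to -0.006 with TJ0113 under median-ratio scaling. The cause of these shifts was not tested. With the replicate number as a block, 17 members rose and 6 fell between vehicle and sham, 15 and 12 between TJ0113 and sham. None did between TJ0113 and vehicle. The counts over all genes were 5389 and 1005, 4969 and 1093, and none. Same-numbered vehicle and TJ0113 libraries correlated at -0.06, 0.5 and 0.56 after removal of group means, and sham pairs at -0.24 to 0.03. Vehicle and TJ0113 libraries with unlike numbers correlated at -0.54 to 0.05. The numbers were not read as pairs, since the labels do not say that they mark a shared litter, day or batch.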
